A study of Mus musculus with 2 samples.

Results

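Choroid plexus genes were examined in RNA sequencing (RNA-seq) data from the embryonic mouse cortex, comparing tissue with and without the co-repressor Rcor2. The set holds 10 of the 21896 genes in the files: Ttr, Enpp2, Igfbp2, Kl, Folr1, Aqp1, Clic6, Kcne2, Otx2 and Msx1. They were taken by gene symbol, and the set had been chosen by levels already seen in these same libraries, so that every difference given for them between the libraries is a description and carries no test. The tissue was the germinal layer of the E13.5 cortex, its ventricular zone together with the subventricular zone (VZ-SVZ), from C57/BL6 embryos. There was 1 sample, with 1 library, of Rcor2fl/fl embryos, homozygous for the floxed Rcor2 allele, and 1 sample of Rcor2cko embryos, in which Cre recombinase under the Nestin promoter deletes floxed Rcor2 exons in neural cells. Both parents of the litter were Rcor2fl/+ and carried NesCre. Whether the Rcor2fl/fl embryos carried Cre, and how many embryos went into a library, is not given in the sources used here. Levels were FPKM, fragment numbers set relative to transcript length and sequencing depth. Low FPKM values fell on steps of whole fragments, from which scaling totals of 18841651 fragments (Rcor2fl/fl) and 25479912 fragments (Rcor2cko) were recovered. With 1 library per genotype no difference has a replicate check. Where an interval is given for a ratio, it is a 95% exact (Clopper-Pearson) interval of fragments that covers counting error only.

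The choroid plexus is a sheet of secretory epithelium that hangs into the brain ventricles and makes cerebrospinal fluid. Its cells arise from the dorsal midline of the neural tube, next to the cortical hem, under BMP signals and with the homeobox factor Otx2. The mature epithelium secretes carrier proteins such as transthyretin and moves water, ions and folate from blood to ventricle.

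The libraries were checked against their labels before the genes were read. Rcor2, over its whole transcript, was at 90.6 FPKM in the Rcor2fl/fl sample and 55.7 FPKM in the Rcor2cko sample (3108 and 2571 fragments). All 10 genes on a list of cortical progenitors and neurons were measured above 1 FPKM in both libraries, from 10.8 to 568 FPKM, and none of them was past 1.5-fold. The noncoding RNA Xist, made from an inactive X chromosome, was at 177 FPKM and 0.109 FPKM, so that the 2 libraries also differed in Xist. The sex of the embryos is not given in the sources used here. The part of Xist, or of a difference in embryo sex, in the differences below cannot be told apart from that of genotype.

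In the Rcor2fl/fl sample 8 of the 10 choroid plexus genes were under 1 FPKM and 3 of them were listed at 0, and in the Rcor2cko sample 5 were under 1 FPKM. All 10 were higher in the Rcor2cko sample on the log2 scale of (FPKM + 0.1), by a median of 1.22, which went to 0.449 with a pseudocount of 1 and to 1.75 with one of 0.01. For Kl and Msx1 this rested on 0 fragments against 1 and 2, under the floor of 3 fragments used here, in the library with the larger scaling total. Of all 21896 genes, with those at 0 in both libraries counted as not higher, 35.2% were higher, with a median of 0. Of the 11777 genes reaching 1 FPKM in either library or both 42.4% were higher, with a median of -0.03. On that filter 5 of the 10 genes (Ttr, Enpp2, Igfbp2, Aqp1 and Kcne2) could be counted, 3 of them only through their Rcor2cko level, and 3 (Ttr, Kcne2 and Aqp1) were more than 1.5-fold higher. Of all genes passing the filter 3.79% were more than 1.5-fold higher and 1.76% lower. With no filter 6 of the 10 were more than 1.5-fold higher, the others being Clic6, Folr1 and Otx2, against 5.88% of all genes higher and 3.07% lower. None was lower. The count of 3 became 0 when at least 1 FPKM was required in both libraries, a setting that leaves out every gene of the set but Igfbp2 and Enpp2. In tissue RNA of this kind, more choroid plexus cells and more RNA per cell cannot be told apart.

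**Figure D1:**
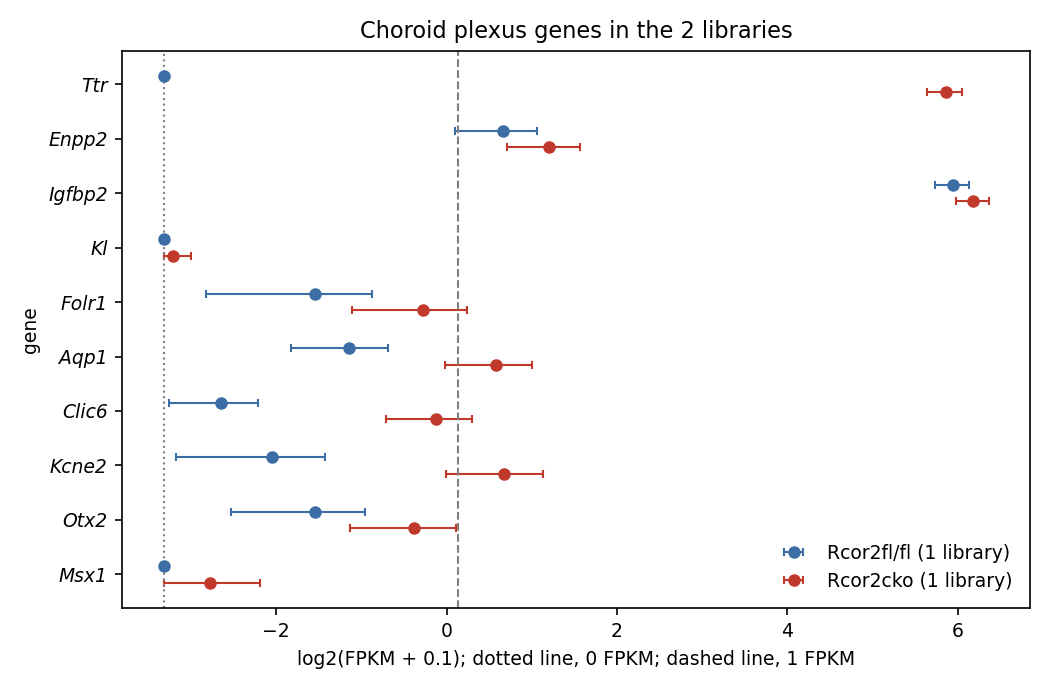
Levels of the 10 choroid plexus genes, as log2(FPKM + 0.1), in the Rcor2fl/fl sample (blue) and the Rcor2cko sample (red), with the 95% FPKM intervals of the deposited files as bars. Ttr goes from 0 to 57.8 FPKM, while the bars of Igfbp2 and Enpp2 overlap.

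The order of the levels differed between the libraries. In the Rcor2fl/fl sample Igfbp2 came first, at 61.5 FPKM, and supplied nearly all of the 64.0 FPKM that the 10 genes summed to. Enpp2 followed at 1.48 FPKM, and both stood clear of the next gene in the 95% FPKM intervals of the file. Aqp1, Folr1, Otx2, Kcne2 and Clic6 came after, from 0.352 down to 0.0598 FPKM, each overlapping its neighbour. In the Rcor2cko sample Igfbp2 and Ttr led at 72.5 and 57.8 FPKM, with intervals that overlapped (62.9 to 82.1 and 49.7 to 66.0 FPKM). Enpp2, Kcne2, Aqp1, Clic6, Folr1 and Otx2 lay below them, from 2.19 to 0.670 FPKM, again with no gap between neighbours. Msx1 and Kl were last, and in the Rcor2fl/fl sample they shared the last place, at 0, with Ttr. Without Igfbp2 the genes summed to 2.52 FPKM in the Rcor2fl/fl sample and 65.2 FPKM in the Rcor2cko sample, most of it Ttr. The 95% FPKM intervals of the 2 libraries did not overlap for 4 of the 10 genes, Ttr, Clic6, Kcne2 and Aqp1, with the Rcor2cko sample higher. This held for 1.88% of all genes, and a gene listed at 0 has an interval of no width in the files.

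Among the secreted proteins, Ttr differed most. Ttr encodes transthyretin, which carries thyroxine and the retinol-binding protein and is the most typical product of the choroid plexus. It was listed at 0 in the Rcor2fl/fl sample and stood at 57.8 FPKM, backed by 1503 fragments, in the Rcor2cko sample. For its transcript of 1221 nt, 3 fragments would have given 0.155 FPKM in the Rcor2fl/fl sample, so that Ttr was at least 373-fold higher in the Rcor2cko sample by that floor, and 303-fold by the 95% exact lower limit of its fragments. None of 12 housekeeping genes was listed at 0 in either library, which does not bear on the 0 of Ttr itself. In the Rcor2fl/fl sample Clic6 and Kcne2 had 4 fragments each. In the Rcor2cko sample they had 74 and 57, against 1503 for Ttr. Why Ttr had 0 fragments beside them in the Rcor2fl/fl sample was not tested. Ttr ranked 4 among the 11777 genes by log2 change, and was 1 of 5 genes listed at 0 in the Rcor2fl/fl sample and at 5 FPKM or more in the Rcor2cko sample. Ttr lies on chromosome 18 of mm9 from 20823751 to 20832825, plus strand, with 4 exons in GENCODE vM1.

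Igfbp2 and Enpp2 were present in both libraries at similar levels. Igfbp2, a secreted binding protein of the insulin-like growth factors, was at 61.5 FPKM in the Rcor2fl/fl sample and 72.5 FPKM in the Rcor2cko sample, from 1286 and 2037 fragments. The ratio was 1.18 (1.10 to 1.26), beyond counting error and under 1.5-fold. Enpp2 encodes autotaxin, the enzyme that makes lysophosphatidic acid, and was at 1.48 and 2.19 FPKM. The file of the Rcor2fl/fl sample gives Enpp2 as 2 transcripts, of which the one of 3242 nt held all 1.48 FPKM and the one of 2745 nt was listed at 0. Enpp2 was 1.45-fold higher on (FPKM + 0.1), the 95% FPKM intervals of the libraries overlapped, and its place just under 1.5-fold is shared with Msx1. Kl encodes klotho, a membrane protein that is shed and serves as co-receptor of a phosphate-regulating FGF, and rested on 0 fragments and 1 fragment. Its level in both libraries was below the floor of 3 fragments. For its transcript of 5118 nt that floor was 0.0323 FPKM in the Rcor2fl/fl sample and 0.0239 FPKM in the Rcor2cko sample. A difference in Kl below these levels was not detectable. Enpp2 lies on chromosome 15 of mm9 (54670453 to 54751701, minus strand, 26 exons), Igfbp2 on chromosome 1 (72871077 to 72899048, plus strand, 4 exons) and Kl on chromosome 5 (151755182 to 151796384, plus strand, 5 exons).

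Of the membrane proteins, Clic6 and Kcne2 had the largest ratios. Clic6, of the chloride intracellular channel family, was at 0.0598 FPKM in the Rcor2fl/fl sample and 0.820 FPKM in the Rcor2cko sample. These were 4 and 74 fragments, a ratio of 13.7 (5.13 to 51.6). Kcne2, a single-pass subunit that sets the gating of potassium channels at the apical side of this epithelium, was at 0.142 and 1.5 FPKM. These were 4 and 57 fragments, a ratio of 10.6 (3.92 to 40.2). Aqp1, the water channel of the apical membrane, was at 0.352 and 1.40 FPKM, or 17 and 91 fragments, a ratio of 3.97 (2.35 to 7.11). Folr1, the folate receptor that carries folate into the cerebrospinal fluid, was at 0.243 and 0.723 FPKM. Its 5 and 20 fragments gave a ratio of 2.98 with a wide interval (1.08 to 10.1), and its 95% FPKM intervals overlapped. With Ttr, Igfbp2 and Otx2, these were the 7 of the 9 genes with recovered fragments whose interval lay above equal levels, as it did for 12.0% of the 12093 genes compared in this way. All 4 were lower in the Rcor2fl/fl sample, and the intervals of Clic6, Kcne2 and Aqp1 lay above 1.5-fold. The table of RefSeq promoters on GRCm38.p6 holds Kcne2 and Aqp1. The Aqp1 start and the first Kcne2 start there are the starts used in the files when the promoter is matched letter for letter to mm9. A further Kcne2 start lies 3227 bases downstream and its promoter is not shown. The 250 bases before the start are shown because both genes pass the level filter and differ more than 1.5-fold, Kcne2 from chr16:92292139-92292388 and Aqp1 from chr6:55336049-55336298, both on the plus strand and 5′ to 3′. No capitals appear, since neither holds the Otx or Msx letters searched for below.
Kcne2: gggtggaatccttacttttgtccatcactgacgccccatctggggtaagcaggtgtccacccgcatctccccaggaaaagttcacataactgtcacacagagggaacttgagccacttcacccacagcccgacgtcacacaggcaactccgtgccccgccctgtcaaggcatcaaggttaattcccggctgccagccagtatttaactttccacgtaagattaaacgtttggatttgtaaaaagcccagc
Aqp1: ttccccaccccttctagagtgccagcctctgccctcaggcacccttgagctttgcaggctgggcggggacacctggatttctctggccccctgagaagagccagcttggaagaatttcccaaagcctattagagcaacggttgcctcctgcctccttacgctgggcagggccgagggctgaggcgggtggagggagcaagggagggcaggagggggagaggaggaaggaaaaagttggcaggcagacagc

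**Figure D2:**
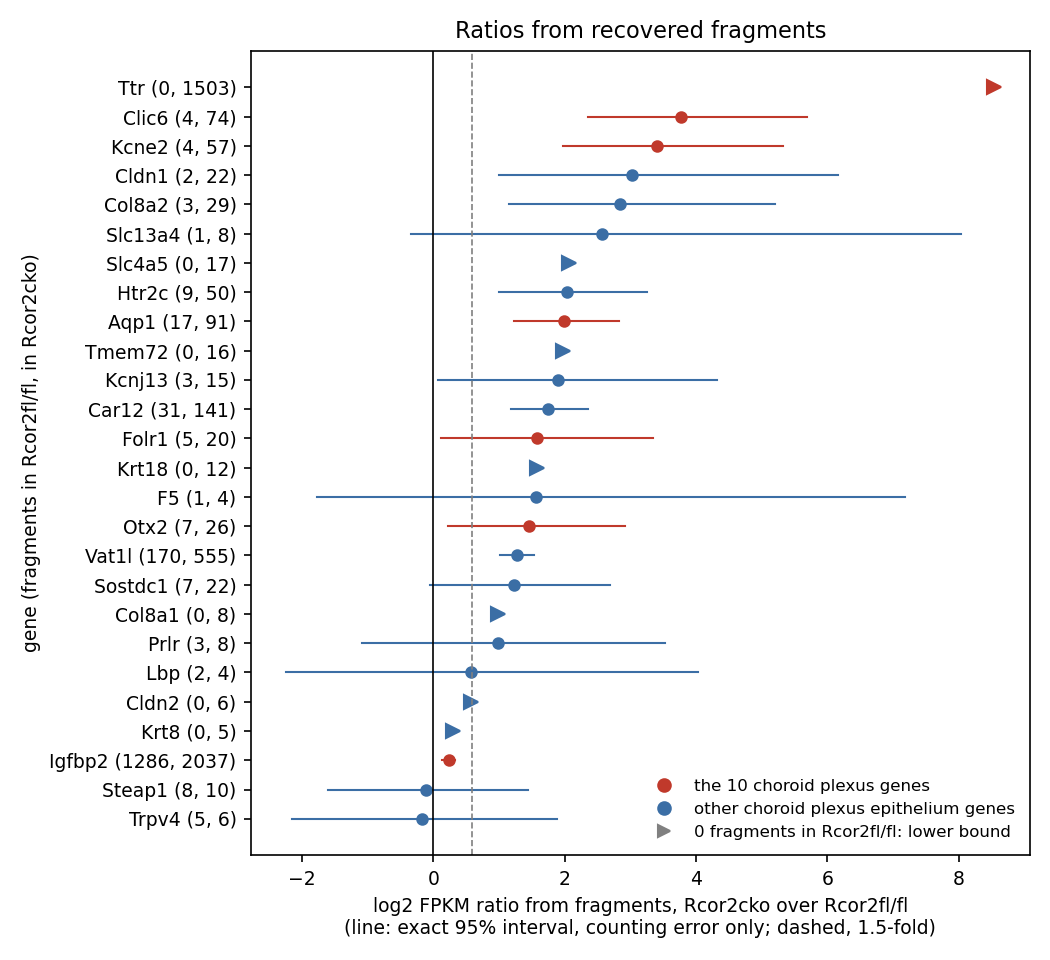
FPKM ratios computed from recovered fragments, Rcor2cko over Rcor2fl/fl, on a log2 scale, with 95% exact intervals as lines and the fragments of both libraries beside each gene. Red marks the set and blue those of the other choroid plexus epithelium genes reported here that were under 1 FPKM or more than 1.5-fold higher, each with over 3 Rcor2cko fragments. Ttr, an arrow at its bound against the floor of 3 fragments, stands far to the right of Clic6 and Kcne2, and Igfbp2 sits near 0.

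Both transcription factors were at low levels. Otx2, the homeobox factor needed to form and keep the choroid plexus, was at 0.243 FPKM in the Rcor2fl/fl sample and 0.670 FPKM in the Rcor2cko sample. Its 7 and 26 fragments gave a ratio of 2.76 (1.17 to 7.53), and the 95% FPKM intervals overlapped. Msx1, a homeobox target of BMP signals at the dorsal midline, had 0 and 2 fragments, both under the floor of 3. An antisense gene, Msx1as, overlaps Msx1 and was at 0.0266 and 0.119 FPKM. The kit keeps strand, but whether strand was used in the counting is not given in the sources used here. Of the 10 genes 6 are in the promoter table, with 11 promoters of 300 bases in all: Aqp1, Igfbp2, Kcne2, Kl, Msx1 and Otx2. The letters GGATTA, which Otx proteins bind, searched on both strands, were in 1 of the 11, a start of Otx2 itself, and in 7.06% of the 32851 promoters of the table. The letters TAATTG, which Msx proteins bind, searched in the same way and sharing no base with the first match, were in 2 of the 11, both of Otx2, and in 8.0% of all. A match is only a run of letters and no match says only that they are not in the window. The Otx2 stretch with the Otx letters in capitals is shown because it is the one match to those letters in the set. It is chr14:48665110-48665359 of GRCm38.p6, minus strand, 5′ to 3′, before a start that lies at -2237 bases from the Otx2 start used in the files, the minus sign meaning upstream.
Otx2: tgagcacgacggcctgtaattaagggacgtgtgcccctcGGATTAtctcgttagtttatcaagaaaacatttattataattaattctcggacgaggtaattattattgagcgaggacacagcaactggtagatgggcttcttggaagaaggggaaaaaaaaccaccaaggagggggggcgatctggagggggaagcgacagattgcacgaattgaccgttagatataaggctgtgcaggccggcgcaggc

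Clic6 and Kcne2 are close neighbours on chromosome 16 of mm9, Kcne2 from 92292634 to 92298374 (2 exons) and Clic6 from 92485981 to 92541488 (6 exons), both on the plus strand. By the loci in the files 200 kb separate them, and 4 genes lie between. Rcan1, an inhibitor of calcineurin, was at 13.7 and 14.4 FPKM there, and Fam165b at 31.6 and 31.7 FPKM. Kcne1, another subunit of the same family as Kcne2, was at 0.0179 and 0.0266 FPKM, and 4930563D23Rik was at 0 and 0.0475 FPKM. Of the genes between, Rcan1 and Fam165b were thus level, and the other 2 were under 1 FPKM in both libraries. Within 500 kb of any gene of the set lay 97 other genes, of which 57 passed the level filter. Of the 57 none was more than 1.5-fold higher and 2 were lower, against 3.79% higher and 1.76% lower of all genes passing it. The neighbours under the filter included genes past 1.5-fold in both directions. Aqp1 is on chromosome 6 (55286426 to 55298549, plus strand, 4 exons), Folr1 on chromosome 7 (109006845 to 109019302, minus strand, 7 exons), Otx2 on chromosome 14 (49277354 to 49287319, minus strand, 4 exons) and Msx1 on chromosome 5 (38211724 to 38215822, minus strand, 2 exons).

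A longer list of 38 other genes of choroid plexus epithelium was read in the same way. On the level filter 17 could be counted, beside shares of 3.79% higher and 1.76% lower by more than 1.5-fold among all genes passing it. Of the 17, 6 were higher in the Rcor2cko sample by more than 1.5-fold and none was lower by as much. Among them Car12, a carbonic anhydrase, was at 0.467 and 1.57 FPKM (31 and 141 fragments), a ratio of 3.37 (2.27 to 5.15). Vat1l was at 2.61 and 6.31 FPKM (170 and 555 fragments), a ratio of 2.42 (2.03 to 2.89). The cation channel Trpm3 was at 0.807 and 2.12 FPKM, the secreted Wfdc2 at 0.723 and 1.70 FPKM, and the protease inhibitor Spint2 at 4.57 and 8.26 FPKM. The other 11 stayed within 1.5-fold, among them the most abundant, the monoamine transporter Slc29a4 (29.4 and 25.2 FPKM), the copper transporter Slc31a1 (12.1 and 11.5 FPKM) and the ion cotransporter Slc12a2 (10.2 and 9.39 FPKM). Of the 38 genes 13 were at 1 FPKM or more in the Rcor2fl/fl sample. Among the 6 that were more than 1.5-fold higher, Car12, Trpm3 and Wfdc2 passed the filter only through their Rcor2cko level.

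The 21 genes of that list under 1 FPKM in both libraries held several that are typical of this epithelium. With no filter 20 of the 38 were more than 1.5-fold higher and none was lower, against 5.88% of all genes higher and 3.07% lower. Of the 38, 7 were listed at 0 in the Rcor2fl/fl sample and above 0 in the Rcor2cko sample. Of these, Slc28a3, Krt8 and Cldn2 rested on 1, 5 and 6 Rcor2cko fragments. Over all 21896 genes 6236 were listed at 0 in the Rcor2fl/fl sample. In the Rcor2cko sample, with the larger scaling total, 5823 were. With fragments recovered for 30 of the 38, the 95% exact interval lay below equal levels for 2, the abundant Slc29a4 and Slc12a2. It lay above equal levels for 12, of which 8 were under the level filter, against 12.0% of the 12093 genes compared in this way. These 8 were looked up after their values were seen. The serotonin receptor Htr2c had 9 and 50 fragments, a ratio of 4.11 (2.0 to 9.52), and the tight junction protein Cldn1 had 2 and 22 fragments, a ratio of 8.15 (2.0 to 71.5). Col8a2, a collagen, had 3 and 29 fragments, and the potassium channel Kcnj13 had 3 and 15. Slc4a5, a bicarbonate cotransporter, had 0 and 17 fragments, at least 4.20-fold higher by the floor of 3 fragments, and Tmem72 had 0 and 16, at least 3.95-fold higher. The keratin Krt18 had 0 and 12 fragments, at least 2.97-fold higher, and Col8a1 had 0 and 8, at least 1.97-fold higher. The 95% exact lower limits of these 4, in the same order, were lower, at 3.06, 2.86, 2.07 and 1.26-fold. Intervals spanned equal levels for others under the filter, such as Prlr (3 and 8 fragments), Steap1 (8 and 10) and Trpv4 (5 and 6). Those genes were also looked up after their values were seen. Over all 38 genes the median log2 change was 0.74, and over the 37 that could be given a value with genes at 0 fragments set to their bound it was 0.57.

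**Figure D3:**
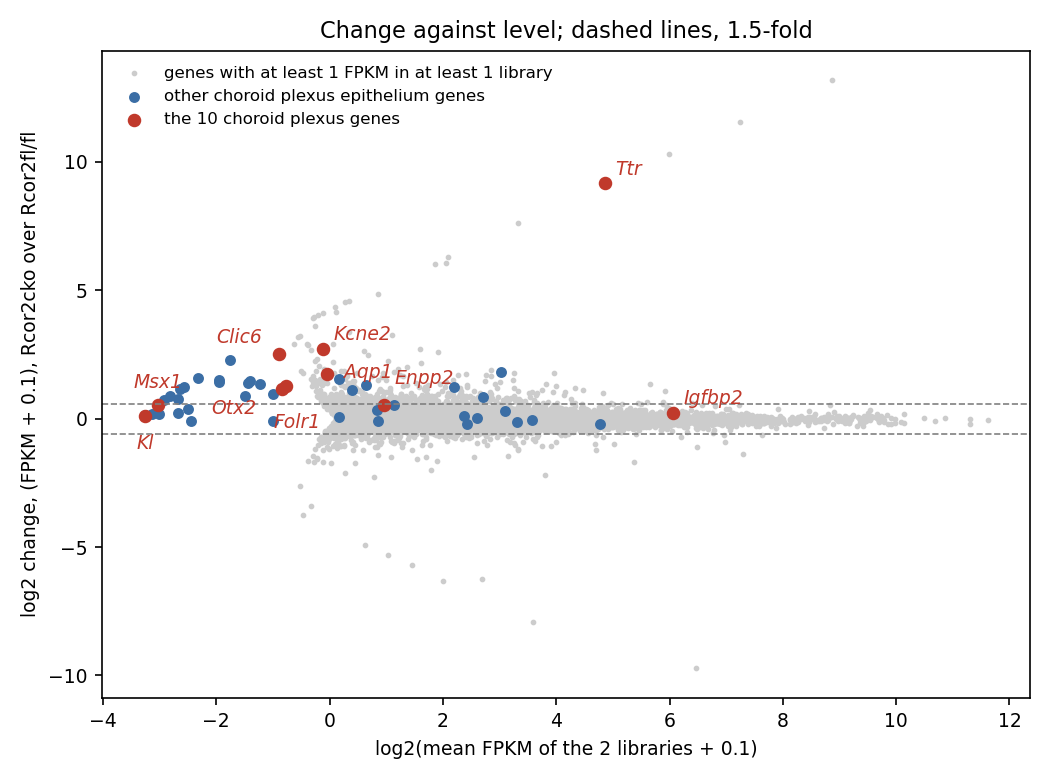
Log2 change of (FPKM + 0.1) against the log2 mean level, for the 11777 genes over 1 FPKM in a library (grey), the 10 choroid plexus genes (red) and the 38 other genes of this epithelium (blue). Ttr stands at a change of 9.18, and the blue points at the highest levels lie between the dashed 1.5-fold lines.

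Partners of these proteins were read beside shares of 3.79% higher and 1.76% lower by more than 1.5-fold among all genes passing the filter. Of 27 such genes 18 passed the filter, 1 was more than 1.5-fold higher and none lower. The one was Ppap2c, a phosphatase of lysophosphatidic acid, the product of Enpp2, at 1.83 and 4.43 FPKM (50 and 163 fragments). The lysophosphatidic acid receptor Lpar1 was at 7.92 and 7.50 FPKM. For Ttr, the thyroid hormone receptor Thra was at 162 and 148 FPKM. For Folr1, the folate transporters Slc46a1 and Slc19a1 were at 2.30 and 2.97 FPKM and at 4.66 and 4.33 FPKM. The potassium channel Kcna3, which pairs with Kcne2, was at 5.68 and 7.71 FPKM, and Fgfr1, which pairs with klotho, at 28.8 and 24.3 FPKM. For Igfbp2, the growth factor Igf2 was at 5.58 and 6.42 FPKM and its receptor Igf1r at 12.2 and 11.4 FPKM. With no filter 3 of the 27 were more than 1.5-fold higher and 1 lower, against 5.88% and 3.07% of all genes. The lower one was Dio2, at 63 and 40 fragments, a ratio of 0.47 (0.31 to 0.71). Dio3, among the higher, had 0 and 5 fragments.

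The list of paralogs of the set held 38 genes, of which 11 passed the filter. Past 1.5-fold, 3.79% of all genes passing it were higher and 1.76% lower. Otx1, the relative of Otx2 that is expressed in the cortex, was at 14.6 and 10.4 FPKM. Clic1 and Clic4, relatives of Clic6, were at 47.1 and 52.3 FPKM and at 37.9 and 38.8 FPKM. Among the Igfbp2 relatives, Igfbp4 was at 18.9 and 25.1 FPKM and Igfbp5 at 11.9 and 15.6 FPKM, and Igfbp3 was the only paralog past 1.5-fold lower, at 18 and 8.54 FPKM. Aqp11, a relative of Aqp1, was the only one past 1.5-fold higher, at 1.46 and 2.42 FPKM. The genes outside the set whose log2 change was nearest to 1.73, the median of the 5 that passed the filter, were Ucp2, Tgfa, Gad2, Crabp2 and Ebf1, within 0.05 of it over 2 libraries. They were at 3.05 and 10.2, 1.01 and 3.52, 2.33 and 8.10, 2.18 and 7.30, and 0.699 and 2.46 FPKM.

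Genes of the roof plate and cortical hem, the tissue beside which the choroid plexus forms, were on balance lower in the Rcor2cko sample. Of 20 such genes 7 passed the filter, of which 3 were more than 1.5-fold lower and 1 higher, and the median log2 change of the 20 was -0.56. Among all genes passing the filter 1.76% were more than 1.5-fold lower and 3.79% higher. The ligand Wnt8b was at 1.35 and 0.0371 FPKM (81 and 3 fragments), and the Wnt agonist Rspo1 at 1.10 and 0.0961 FPKM (34 and 4 fragments). Rspo3, of the same family, was at 11.8 and 6.26 FPKM. Sulf1, a sulfatase of heparan sulfate, was the one that was higher, at 0.269 and 1.62 FPKM. Of 12 multiciliated cell genes found in the files 7 passed the filter, none was more than 1.5-fold higher and 1, Trp73, was lower (4.05 and 1.95 FPKM). The ciliary regulator Foxj1 was at 1.87 and 1.78 FPKM (84 and 108 fragments).

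Markers of other cells that make Ttr or Otx2, or that a dissection can carry along, were read beside the set. The shares past 1.5-fold of all genes passing the filter were again 3.79% higher and 1.76% lower. Of 10 genes of hepatocytes and yolk sac endoderm, which also secrete transthyretin, none passed the filter. Alb and Afp were among the 5 listed at 0 in both libraries, and the summed level was 1.77 FPKM in the Rcor2fl/fl sample and 0.608 FPKM in the Rcor2cko sample. Of 9 genes of retinal pigment epithelium, which uses Otx2, Rpe65 and Tyr were at 0 in both libraries and 2 passed the filter, of which none was more than 1.5-fold higher and 1, the melanin enzyme Dct, was lower (2.05 and 1.29 FPKM). The summed level of 45.2 and 50.7 FPKM was nearly all Rlbp1 (42.8 and 48.9 FPKM). Of 12 diencephalon and midbrain genes none was more than 1.5-fold higher, 2 (Lhx5 and Tcf7l2) of the 3 that passed the filter were lower, and the sums were 9.81 and 6.35 FPKM.

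Stromal and blood-derived cells, which lie under this epithelium, were listed too. Shares over all genes passing the filter were 3.79% more than 1.5-fold higher and 1.76% lower. Of 16 genes of mesenchyme and meninges 3 passed the filter, and 1, Pdgfra, was more than 1.5-fold higher, at 0.267 and 1.22 FPKM, with sums of 11.0 and 13.9 FPKM. With no filter 4 of the 16 were higher and 1 lower by more than 1.5-fold, against 5.88% and 3.07% of all genes. The 95% exact interval lay above equal levels for 3 of the 11 with recovered fragments, all under the filter: the collagens Col1a1 (6 and 27 fragments) and Col1a2 (24 and 73), and the matrix protein Ogn (1 and 19). It did so for 12.0% of the 12093 genes compared in this way. All 10 endothelial genes passed and none was past 1.5-fold, with sums of 36.4 and 39.1 FPKM. Of 10 genes of macrophages and microglia 8 passed, 5 were more than 1.5-fold higher and none lower, and the sums were 20.5 and 31.7 FPKM. The 5 were Lyz2, Tyrobp, C1qa, Csf1r and C1qc, of which Csf1r, the colony-stimulating factor receptor, was at 2.67 and 4.32 FPKM (185 and 404 fragments). Of 10 erythroid genes 7 passed, none was higher, and the adult globin Hbb-b1 was lower (153 and 97.5 FPKM), with sums of 528 and 445 FPKM. The part of the macrophage genes, of the mesenchyme genes and of the other lists in the differences of the choroid plexus genes was not tested.

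**Figure D4:**
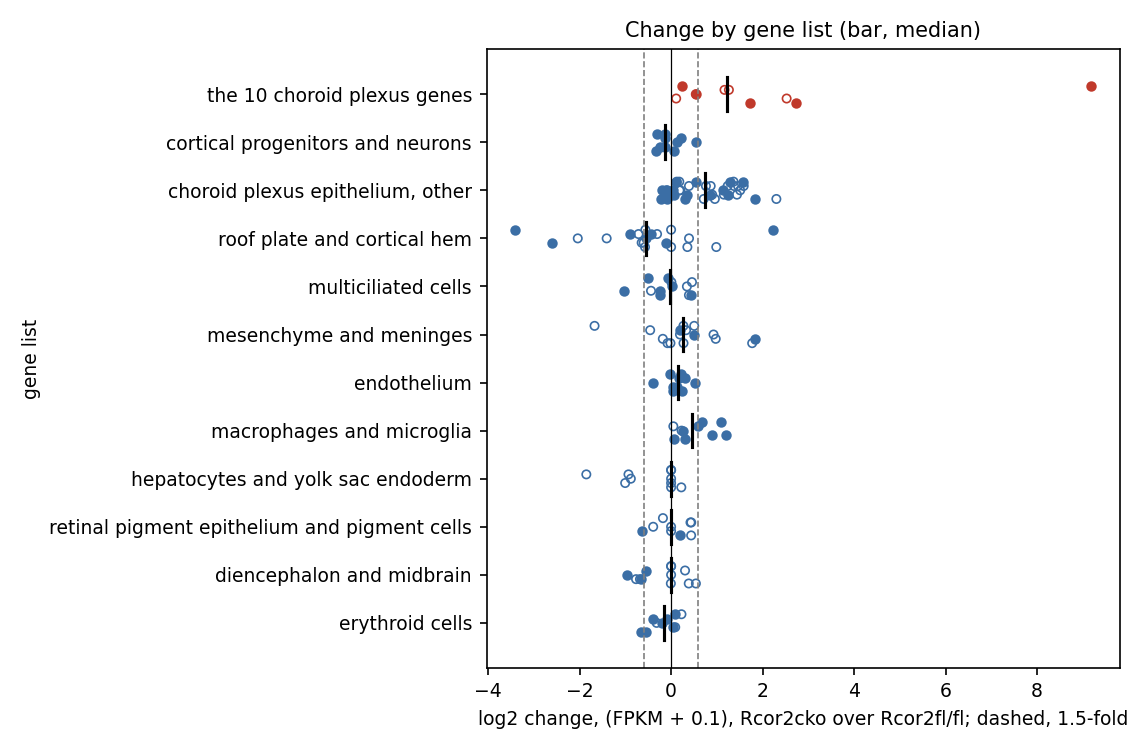
Log2 change of (FPKM + 0.1), Rcor2cko over Rcor2fl/fl, for each gene of the set (red) and of the lists (blue), with filled points for genes at 1 FPKM or more in a library, open points for the others, and a bar at the median. The median of the set is 1.22 and that of the other choroid plexus epithelium genes 0.74, while that of the roof plate and hem list is -0.56.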

How the data were processed

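RNA-seq of the E13.5 VZ-SVZ was given for 1 Rcor2fl/fl and 1 Rcor2cko library. The authors mapped reads to mm9 with TopHat, and the submitters' processing notes list TopHat 1.3.3 and Cufflinks 1.2.0, while the methods name a later TopHat release. The deposited values are FPKM with 95% FPKM intervals, per transcript (27641 rows) for Rcor2fl/fl and per gene (21896 rows) for Rcor2cko, normalized separately. Transcripts of a gene were summed, with the half-widths of their intervals added in quadrature. Genes reaching 1 FPKM in either library were compared as log2 of (FPKM + 0.1), which understates changes of low genes, with a threshold of 1.5-fold. For 14350 genes of a single transcript, 1000 nt or longer, fragments were recovered from the FPKM steps. Of values up to 100 fragments, 99.3% and 99.4% came out within 0.1 of a whole number. These steps were tested on simulated data. A floor of 3 fragments per library was used for genes at 0.

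The genes of the set and the lists were chosen with earlier results of these data known. Genes named were the set, and, of each list, up to 8 past 1.5-fold with the largest change and up to 3 with the highest mean, for paralogs and partners any that passed the filter, and the 5 nearest in log2 change. Xist, Foxj1, Dio2, Dio3, the genes between Kcne2 and Clic6, Msx1as and the choroid plexus and mesenchyme genes under the filter were named after their values were seen. Of the lists, 2 genes that count in the totals are not reported here by name. Positions are from GENCODE vM1 on NCBIM37 (mm9) and promoters from RefSeq on GRCm38.p6. Python 3.11.15, numpy 2.4.6, pandas 2.3.3, scipy 1.17.1 and matplotlib 3.10.9 were used.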

Additional observations from a re-analysis of the deposited data

How the results depend on the processing

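The choices tried were pseudocounts of 1 and 0.01, scaling to equal median, total or upper quartile, a gene's highest row in place of the sum, 95% FPKM intervals of the libraries that do not overlap, a 2-fold threshold, and other filters. The number of genes of the set more than 1.5-fold higher, 3, became 6 with no filter, 0 when both libraries had to reach 1 FPKM and 1 when either had to reach 5 FPKM. The number of other choroid plexus epithelium genes more than 1.5-fold higher, 6, became 20, 3 and 3 under the same settings. These filters test more or fewer genes by construction. All 10 genes of the set stayed higher in the Rcor2cko library under the pseudocounts, scalings and highest row tried, but these settings could not have turned them. A pseudocount cannot change the direction, and the scalings multiplied the Rcor2cko values by 1.014 to 1.031, which raises them. The highest row left the log2 change of each gene of the set as it was. The median log2 change of the set, 1.22, was 0.449 with a pseudocount of 1 and 1.75 with 0.01. The pseudocount moved the low genes most: the log2 change of Ttr ran from 5.88 to 12.50, of Clic6 from 0.78 to 3.57, of Kcne2 from 1.13 to 3.32 and of Msx1 from 0.064 to 2.47. Kl and Msx1 had at most 2 fragments in a library, and for them differences below the floor of 3 fragments were not detectable. No paired analysis was possible because each genotype has a single library, for which reason no replicate could be left out either.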
